A study of Mus musculus with 11 samples.

Results

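The TGF-beta genes described here are 9 genes chosen by symbol: the ligands Tgfb1, Tgfb2 and Tgfb3, the latency protein Ltbp1, the receptors Tgfbr1 and Tgfbr2, the inhibitor Smad7, and the response genes Tgfbi and Ctgf. All 9 were found among the 28692 genes of the tables. They were followed through tubular, stromal, endothelial and immune cells of mouse kidneys by single-cell RNA-seq. The 11 libraries fall into 3 groups of male C57Bl/6 mice. The UIR group (unilateral ischemia/reperfusion, 3 libraries) had the left renal pedicle clamped for 30 minutes at 37 °C, and the UUO group (unilateral ureter obstruction, 3 libraries) had the left ureter tied off for good. Both groups were operated at 10 weeks of age and harvested on day 28. The 5 control libraries came from naive mice of that strain, sex and age, with no surgery named in the methods. No transgene is named for any group. The operated mice had isoflurane anesthesia and were given buprenorphine after surgery, which the methods do not name as treatments of the naive mice. The comparisons ask which kidney cells make, sense and answer TGF-beta in a fibrotic kidney.

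TGF-beta is secreted as a latent complex, in which the growth factor stays wrapped in its own propeptide and is tied to the matrix by a latent TGF-beta binding protein such as Ltbp1. Freed ligand brings the type II receptor Tgfbr2 together with the type I receptor Tgfbr1, whose kinase passes the signal to Smad2 and Smad3, while Smad7 blocks the type I receptor in a feedback loop. In kidney the pathway is best known for driving matrix production in fibrosis, and Ctgf and Tgfbi, both secreted matrix-associated proteins, are among its classical target genes.

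After the filters 40484 cells were kept, 10244 from controls, 16923 from UIR and 13317 from UUO. Cell classes were rebuilt from marker genes and their names stand for cells like that type. The classes are the proximal tubule (PT), the loop of Henle, the distal tubule with collecting duct principal cells (DT/CD-P), intercalated cells, tubular cells with Cp, Vcam1, Slc14a2 and Cryab (frTEC), podocytes, endothelium, stroma, macrophages and T/NK cells. The libraries differed before any gene was compared. Between 56.9% and 78.8% of the called barcodes of a control library were left out for a mitochondrial share over 30%, against 23.4% to 36.8% of a UIR library and 3.13% to 7.67% of a UUO library. Immune cells were 3.8% to 7.54% of the kept cells in controls. They were 30.2% to 44.9% after UIR and 48.6% to 55.4% after UUO. The controls were prepared in 3 batches and the labels give none for the injured libraries, so batch and group cannot be told apart. The methods give 3 mice per injury and 5 controls, as many as there are libraries, but do not tie a library to a mouse, and the p-values measure the spread between libraries.

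Levels are given as CPM, the UMIs (unique transcript molecules) of a gene per 1000000 UMIs of all cells of a class in a library. The reads come from transcript 3′ ends, so levels were compared between cells and groups, not between genes. A gene is called changed at an adjusted p under 0.05 in edgeR's quasi-likelihood test over all genes of the class. Counting error is the only error that the intervals and lower limits below cover.

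Rises were called in every tubular class in both injuries, while Tgfb2, Ltbp1 and Smad7 fell in the endothelium in both. In UIR, intercalated cells had only 1 of 5 genes called (15.4% of all genes) and frTEC 1 of 7 (5.36%). Each of these calls was lost when some single libraries were left out. The tubular classes also held many of the tests. Of 90 possible pairs of gene and class, 61 had enough counts to be tested. Against control, 24 pairs were called in UIR (17 higher and 7 lower, beside 13.0% called among all tests of all genes in these classes), and 33 in UUO (27 higher and 6 lower, background 18.7%). Between the injuries 5 pairs were called, all higher in UUO (background 2.15%).

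In the loop of Henle 5 of 7 tested genes were called in UIR and 6 of 7 in UUO, all higher, in a class where 31.9% and 37.4% of all genes were called. There Tgfb2 was at 0 CPM in all control libraries, and Tgfb1 and Ltbp1 in most. These genes passed the filter on low counts through the injured libraries and could only be called higher. In the endothelium 3 of 8 were called in UIR, all lower (background 2.16%), and 7 of 8 in UUO, 4 higher and 3 lower (background 12.5%). The DT/CD-P cells had 4 of 6 called in each injury, 3 higher and 1 lower, where 29.1% and 44.8% of all genes were called. In the PT 5 of 6 were called in UIR (background 15.1%) and 3 of 6 in UUO (16.9%). In intercalated cells it was 1 of 5 in UIR (15.4%) and 3 of 5 in UUO (21.6%). In frTEC it was 1 of 7 (5.36%) and 2 of 7 (9.03%), with 2 control pools.

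In the stroma 4 of 9 were called in UIR (13.7%) and 5 of 9 in UUO (16.6%). Macrophages had 1 of 6 called in each injury (backgrounds 5.98% and 11.1%), and it was the receptor Tgfbr1, lower in both. In T/NK cells edgeR called 0 of 5 in UIR, where 1, Tgfbr2, had an unadjusted p under 0.05 (background 0.475%), and 1 of 5 in UUO (1.9%). In podocytes edgeR called 0 of 2 in UIR, where 1, Ctgf, had an unadjusted p under 0.05 (1.25%), and 1 of 2 in UUO (3.29%). DESeq2 called 0 in UIR in both of these classes.

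**Figure D1:**
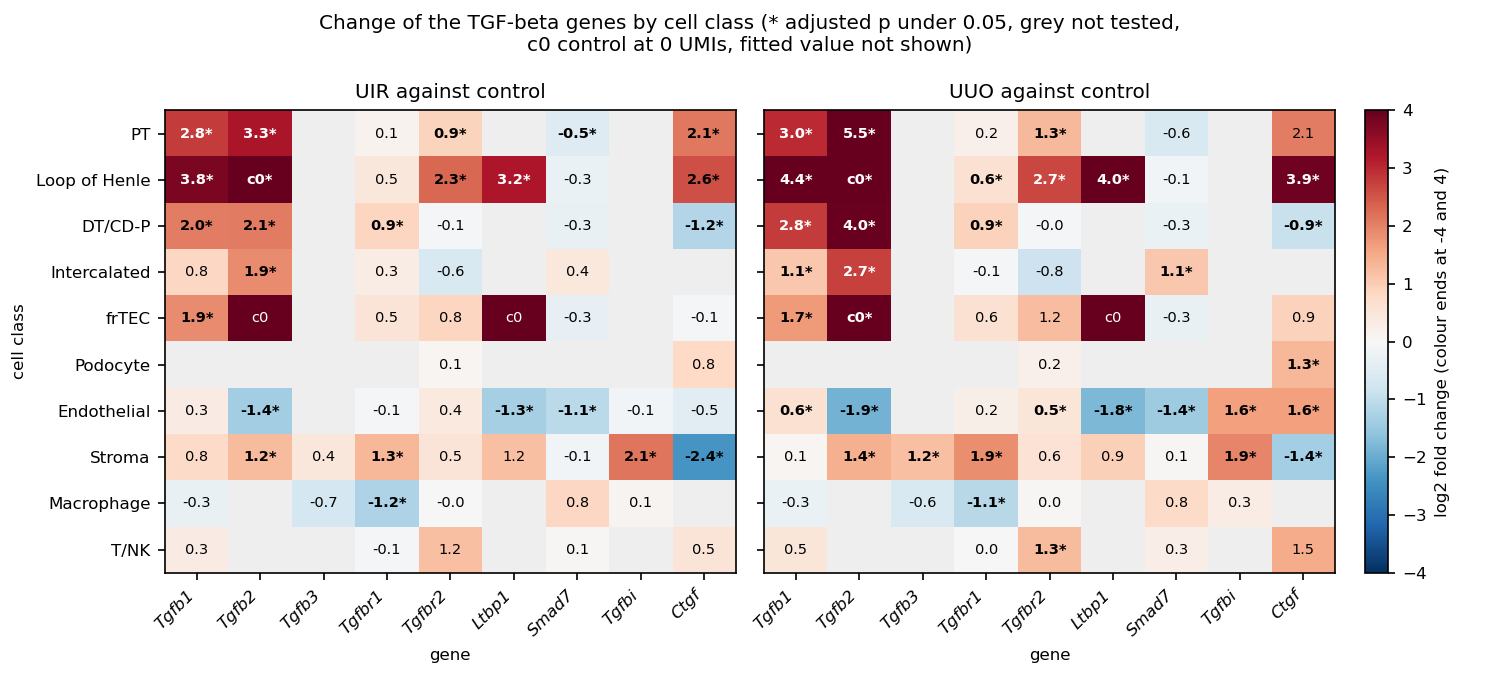
Log2 fold change of the 9 genes (columns) in 10 cell classes (rows), with UIR against control on the left and UUO against control on the right, red for higher and blue for lower, an asterisk for an adjusted p under 0.05, grey where a gene was not tested and c0 where control had 0 UMIs. The tubular rows are mostly red for Tgfb1 and Tgfb2, and the endothelial row is blue for Tgfb2, Ltbp1 and Smad7 in both injuries.

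Tgfb1, the ligand most tied to fibrosis, was a gene of macrophages, endothelium and stroma in the control kidney and was close to absent from the tubule. In controls its level was highest in macrophages, at 245.7 ± 34.6 CPM (SD, n = 5), and then in the Fibro 3 stromal cells, endothelium and T/NK cells. The ranges of these neighbours overlapped, while T/NK cells, at 109 ± 12.9 CPM (SD, n = 4), lay apart from intercalated cells at 12.8 ± 6.07. In UUO the monocytes stood above every other class, at 543 ± 62.4 CPM (SD, n = 3), and did not overlap with the endothelium, which came next. In UIR the Fibro 1 stromal cells led the classes present in all 3 libraries, at 384 ± 96.1 CPM (SD, n = 3), and the only monocyte pool held 502 CPM.

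Tgfb1 rose in all 5 tubular classes in UUO and in 4 of 5 in UIR. In DT/CD-P cells the 5 control libraries held 3.33, 2.54, 4.83, 0.636 and 1.22 CPM of Tgfb1. The UIR libraries held 9.23, 11.8 and 12.8 CPM, and the UUO libraries 18.4, 20.5 and 21.2 CPM. All injured libraries lay above all controls, and the log2 fold changes were 2.05 (SE 0.35, adjusted p = 0.00023) in UIR and 2.80 (SE 0.33, adjusted p = 1.7e-06) in UUO. In the loop of Henle 4 control libraries had 0 UMIs of Tgfb1 and control replicate 2 had 2.56 CPM from 1 UMI, against 7.99, 9.17 and 8.998 CPM in UIR and 12.04, 14.03 and 15.6 CPM in UUO. With 1 control UMI the pooled ratio was 16.9 in UIR (95% interval 2.99 to 669) and 26.9 in UUO (4.76 to 1067). Both were called (adjusted p = 0.00068 and 2.7e-05), and neither was with a mitochondrial limit of 15%, where the log2 fold changes were 1.10 and 1.80.

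In the PT, Tgfb1 stood at 0.562 to 1.34 CPM in controls and at 5.02 to 9.06 CPM in UIR (log2 fold change 2.81, SE 0.32, adjusted p = 6.8e-06). In UUO, where 129 PT cells were left, the libraries gave 9.56, 10.1 and 0 CPM, so that replicate 3 lay below the controls although the pair was called (2.98, SE 0.54, adjusted p = 0.00093). In intercalated cells Tgfb1 went from 5.07 to 18.9 CPM in controls to 32.2 to 38.1 CPM in UUO (1.09, SE 0.32, adjusted p = 0.018; without control replicate 5 it was 0.89, adjusted p = 0.085, and without UUO replicate 2 1.03, adjusted p = 0.050). In frTEC the 2 control pools held 7.97 and 12.1 CPM and the injured libraries 29.0 to 42.5 CPM. These were called at 1.89 (adjusted p = 0.038) in UIR and 1.70 (adjusted p = 0.045) in UUO. The UIR call was lost without UIR replicate 1 (1.74, adjusted p = 0.086) or replicate 3 (1.90, 0.054). The UUO call was lost without UUO replicate 1 (1.73, 0.088), UUO replicate 2 (1.6, 0.083), UIR replicate 2 (1.71, 0.051) or UIR replicate 3 (1.71, 0.061), and with the replicate block both were lost (1.81, 0.064 and 1.61, 0.088).

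Markers of immune cells rose in the tubular pools beside Tgfb1. The sum of the 4 macrophage markers in DT/CD-P cells was 1.38 to 8.54 CPM in controls, 36.7 to 55.7 CPM after UIR and 36.6 to 61.1 CPM after UUO, and in the loop of Henle it was 0 to 5.37, 29.0 to 51.6 and 42.9 to 50.7 CPM. PT pools held 2.57 to 3.71, 37.4 to 68.2 and 40.7 to 43.7 CPM. In the macrophages themselves it was 15470 to 19260 CPM. All 4 markers were above 0 in both injuries. The monocyte list also rose in DT/CD-P cells, but by Plac8 almost alone, from at most 1.67 CPM in controls to 141 to 213 in UIR and 319.5 to 416 in UUO, while Ly6c2 and Chil3 stayed at or under 1.11 CPM. From the droplets without a cell, free RNA would account for 7.90% to 18.3% of the Tgfb1 in DT/CD-P cells in UIR and 6.16% to 10.7% in UUO, and for 11.4% to 27.9% in the loop of Henle. The part of whole immune cells in these pools was not tested.

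Outside the tubule the ligand moved less. In the endothelium Tgfb1 rose in UUO by 0.60 on the log2 scale (SE 0.15, adjusted p = 0.013), from 94.7 to 182 CPM in controls to 214 to 278 CPM, and was 0.33 (adjusted p = 0.40) in UIR. Without UUO replicate 3 the UUO value was 0.51 (adjusted p = 0.058). Of 3 endothelial clusters tested on their own, the one led by Emcn and Plat was called in both injuries, at 0.66 (SE 0.18, adjusted p = 0.046, background 2.09%) in UIR and 0.83 (SE 0.17, adjusted p = 0.0014, background 9.04%) in UUO. The clusters led by Plvap and by Tm4sf1 were not called, at -0.03 (adjusted p = 0.96) and 0.24 (0.61) in UUO, and whether the clusters differ was not tested. In macrophages the values were -0.29 (adjusted p = 0.28) and -0.28 (0.25), and in the stroma 0.77 (0.054) and 0.07. In T/NK cells they were 0.32 and 0.47, also short of the threshold.

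Tgfb2 changed place in the injured kidney. In controls it was a gene of the endothelium, at 152 ± 14.3 CPM (SD, n = 5), with no overlap with any other class. Fibro 3 stood at 8.35 ± 11.8 CPM (SD, n = 2) and the stroma as a whole at 28.1 ± 24.8 CPM (SD, n = 5). The endothelium held 81.0% to 94.3% of all Tgfb2 UMIs of a control library. In UIR its part was 15.9% to 29.3% and in UUO 11.7% to 30.4%, with 21.7% to 34.1% and 25.2% to 33.0% of the UMIs now in tubular cells, which had held 2.87% to 6.77%. The level itself moved in both places.

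In the endothelium the 5 control libraries held 139.9, 158, 161, 167 and 134 CPM of Tgfb2. The UIR libraries held 53.5, 75.8 and 48.3 CPM and the UUO libraries 27.8, 45.6 and 58.4 CPM. No injured library reached the lowest control, and Tgfb2 fell by 1.39 on the log2 scale in UIR (SE 0.21, adjusted p = 0.00090) and by 1.88 in UUO (SE 0.21, adjusted p = 4.8e-06).

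In DT/CD-P cells the same gene went the other way. The control libraries held 0.833, 1.69, 1.38, 2.55 and 1.22 CPM, the UIR libraries 6.05, 10.3 and 6.78 CPM and the UUO libraries 29.0, 32.5 and 27.5 CPM. The 3 groups did not overlap. The log2 fold changes against control were 2.08 in UIR (SE 0.34, adjusted p = 0.00013) and 3.95 in UUO (SE 0.28, adjusted p = 4.3e-09), and UUO exceeded UIR by 1.87 (SE 0.21, adjusted p = 3.6e-05). Free RNA would account for at most 5.38% of these UMIs in UIR and 1.32% in UUO.

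The other tubular classes moved the same way with fewer counts. In the loop of Henle Tgfb2 had 0 UMIs in all 5 control libraries, against 2.44, 5.06 and 4.34 CPM in UIR and 5.92, 9.35 and 10.9 CPM in UUO. Taking 3 counts over the group as the floor, the level was at least 2.56-fold higher in UIR (adjusted p = 0.022) and at least 5.58-fold higher in UUO (adjusted p = 0.0012). When each cell was named by its own markers instead of its cluster's, neither was called (log2 fold changes 0.62 and 1.82, adjusted p = 0.66 and 0.089), and without control replicate 5 the UIR value was not called (adjusted p = 0.061). In intercalated cells Tgfb2 rose by 1.90 in UIR (SE 0.61, adjusted p = 0.040) and 2.72 in UUO (SE 0.56, adjusted p = 0.0015), from 0 to 8.11 CPM in controls to 12.04 to 17.6 and 13.6 to 35.3 CPM. The UIR call was lost without any of control replicates 1, 3, 4 or 5, UIR replicates 1 or 2, or UUO replicate 2 (1.68 to 1.98, adjusted p up to 0.14). In frTEC it had 0 UMIs in 2 control pools and 27.98 to 48.0 CPM in UUO, at least 6.56-fold higher (adjusted p = 0.046), a call lost without UUO replicate 1 (adjusted p = 0.089), UUO replicate 2 (0.087) or UIR replicate 3 (0.053). Tgfb2 passed the filter on low counts there through the injured libraries and could only be called higher. In the PT the calls of 3.28 in UIR and 5.50 in UUO rested on replicate 1 of each injury, at 5.22 and 29.7 CPM, and without it they were 2.30 (adjusted p = 0.21) and 3.46 (0.28).

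Stromal Tgfb2 also rose, with overlap between libraries and in a stroma whose makeup differed by group, as given below with Ctgf. Controls held 0 to 67.4 CPM, UIR 55.96 to 73.7 and UUO 67.0 to 91.0 CPM, for log2 fold changes of 1.25 (SE 0.37, adjusted p = 0.030) and 1.41 (SE 0.37, adjusted p = 0.011). The UIR call was lost without control replicates 1, 2, 3 or 5 or UIR replicates 1 or 3 (1.0 to 1.3, adjusted p up to 0.087). Fibro 2, the contractile cells with Acta2, had the highest mean of the named classes in both injuries, 70.3 ± 13.2 CPM in UIR and 138 ± 34.7 CPM in UUO (SD, n = 3 each), and overlapped with Fibro 1 in UIR but not in UUO.

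A further share of Tgfb2 sat in cells that got no class name. They formed a cluster led by Tagln, Akap12, Cp, Acta2 and Tnc, with markers of frTEC and of Fibro 2 together, and held 13 control, 193 UIR and 99 UUO cells. These 193 cells of 16923 carried 24.1% of all Tgfb2 UMIs of the UIR group, and the 99 cells of 13317 carried 14.4% of those of UUO. By library the level was 198, 142 and 165 CPM in UIR and 178, 192 and 165 CPM in UUO, as high as the endothelium of a control kidney. A smaller cluster with the principal cell genes Aqp2 and Fxyd4 (51 UUO cells) carried another 10.2% in UUO, of which UUO replicate 1 held most, and 2.98% without that library. The cells that got no name held 30.4% of the Tgfb2 UMIs in UIR and 27.9% in UUO (19.3% without UUO replicate 1), against 1.84% in controls (0.561% without control replicate 2), so the class comparisons leave these out. Clusters were formed on variable genes without the 9 genes, the pathway genes and the marker genes, and these shares are a description.

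**Figure D2:**
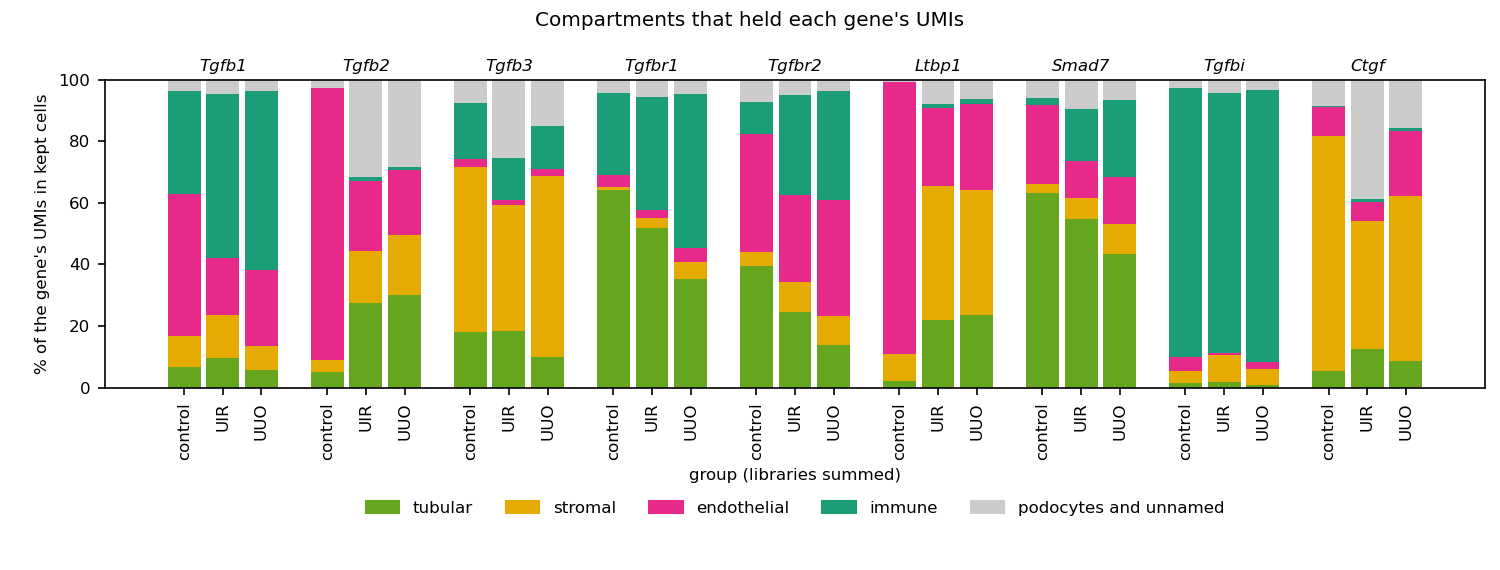
Share of each gene's UMIs in kept cells (vertical axis, percent) held by tubular, stromal, endothelial and immune cells and by podocytes with unnamed cells, in control, UIR and UUO libraries summed by group. The endothelial part of Tgfb2 and Ltbp1 fills most of the control bar and shrinks in both injuries, while Tgfbi stays an immune gene throughout.

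The sequences just before the starts of Tgfb2, Ltbp1 and Tgfb1 are shown because Tgfb2 and Ltbp1 both fell in the endothelium and rose in the loop of Henle in both injuries, and Tgfb1 rose in the loop of Henle but was not called lower in the endothelium. They are from RefSeq on GRCm38.p6, 250 bases before the annotated start, 5′ to 3′ on the gene's strand. Capitals mark CAGAC, the short element bound by SMAD proteins (also as GTCTG, its other strand), and TGACGTCA, the cAMP response element. The genes lie at chr1:186622792-186705989 (Tgfb2, minus strand), chr17:75005568-75392512 (Ltbp1, plus strand) and chr7:25687002-25705077 (Tgfb1, plus strand) on GRCm38 in GENCODE M21. The Tgfb2 window lies at chr1:186705990-186706239 on the minus strand, the Ltbp1 windows of 2 annotated starts at chr17:75005279-75005528 and, inside the gene, chr17:75178531-75178780, and the Tgfb1 window at chr7:25686752-25687001, these on the plus strand.
Tgfb2: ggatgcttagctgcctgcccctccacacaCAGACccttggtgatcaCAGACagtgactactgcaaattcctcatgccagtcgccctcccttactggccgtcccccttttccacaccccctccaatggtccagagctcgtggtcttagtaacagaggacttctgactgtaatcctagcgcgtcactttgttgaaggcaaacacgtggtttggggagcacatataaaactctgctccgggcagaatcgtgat
Ltbp1: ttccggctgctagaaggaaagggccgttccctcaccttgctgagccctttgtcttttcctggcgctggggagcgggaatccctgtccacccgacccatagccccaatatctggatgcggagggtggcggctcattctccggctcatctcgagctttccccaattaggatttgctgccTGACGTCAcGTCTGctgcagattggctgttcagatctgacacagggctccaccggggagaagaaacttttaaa
Ltbp1 internal start: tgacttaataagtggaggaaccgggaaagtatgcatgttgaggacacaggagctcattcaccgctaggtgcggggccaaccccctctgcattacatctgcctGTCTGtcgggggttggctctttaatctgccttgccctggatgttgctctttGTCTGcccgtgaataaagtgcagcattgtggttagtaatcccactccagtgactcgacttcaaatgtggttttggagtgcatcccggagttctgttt
Tgfb1: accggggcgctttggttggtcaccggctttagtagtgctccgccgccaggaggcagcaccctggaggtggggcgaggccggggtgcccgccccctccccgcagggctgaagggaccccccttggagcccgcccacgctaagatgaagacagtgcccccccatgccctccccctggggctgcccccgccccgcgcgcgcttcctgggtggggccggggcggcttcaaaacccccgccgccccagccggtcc
Tgfb2 had 2 SMAD elements in its window, the first Ltbp1 window had 1 beside its cAMP response element, the internal Ltbp1 window had 2 and no cAMP response element, and Tgfb1 had none of the motifs searched. This element occurs in 42.2% of the 32851 promoter windows of this length, the cAMP response element in 1.55%, and the AP-1 site TGANTCA, which none of these windows held, in 6.75%. Both strands were searched, and a match is a run of letters, not a measured binding site. Tgfb3 and Ctgf were matched to no entry.

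Tgfb3 was a stromal gene with few counts, 39 UMIs in all control cells together. It passed the filter on low counts in the stroma and macrophages only. In the stroma the controls held 5.87 to 36.8 CPM, UIR 28.5 to 30.6 CPM and UUO 36.4 to 67.6 CPM. Tgfb3 rose in UUO (log2 fold change 1.19, SE 0.35, adjusted p = 0.025) with libraries that overlapped, and was 0.44 (adjusted p = 0.54) in UIR. The UUO call was lost without control replicate 1 (1.17, adjusted p = 0.057), control replicate 5 (0.93, 0.067) or UUO replicate 1 (0.98, 0.087). In UUO the Fibro 2 and Fibro 1 cells held 65.2 ± 22.9 and 62.9 ± 21.3 CPM and did not differ beyond their spread, with Fibro 3 below at 7.63 ± 6.51 CPM (SD, n = 3 each).

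Ltbp1, the protein that anchors latent TGF-beta, followed Tgfb2. In controls the endothelium held 125 ± 40.8 CPM of Ltbp1 (SD, n = 5) and 68.6% to 97.4% of its UMIs. The control stroma, with fewer cells, held 0 to 110.4 CPM and overlapped with the endothelium in level. The control libraries of the endothelium held 136, 80.8, 138, 88.7 and 181 CPM. The UIR libraries held 51.1, 59.9 and 42.7 CPM and the UUO libraries 45.4, 45.6 and 24.6 CPM, all below the lowest control. Ltbp1 fell by 1.34 in UIR (SE 0.23, adjusted p = 0.0026) and by 1.80 in UUO (SE 0.23, adjusted p = 2.4e-05).

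In the loop of Henle it rose from almost nothing. There 3 control libraries had 0 UMIs and the others 2.74 and 1.71 CPM from 1 UMI each. The UIR libraries held 13.0, 12.7 and 9.46 CPM and the UUO libraries 18.9, 22.7 and 20.9 CPM. The pooled ratio to control was 11.5 in UIR (95% interval 3.14 to 95.1, adjusted p = 0.00023) and 19.9 in UUO (5.45 to 164.8, adjusted p = 2.3e-06), and UUO exceeded UIR by 0.81 on the log2 scale (SE 0.18, adjusted p = 0.010). Free RNA would account for at most 2.99% of the UMIs in either injury. With a mitochondrial limit of 15% the UIR difference was not called (adjusted p = 0.11), with a larger fitted log2 change (8.62).

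In the injured stroma Ltbp1 belonged to the contractile cells. Fibro 2 held 249.9 to 308 CPM in UIR and 259 to 464 CPM in UUO, and Fibro 1 16.4 to 39.3 CPM over both injuries, with no overlap. In the whole stroma the log2 fold changes against control were 1.21 (adjusted p = 0.059) and 0.95 (adjusted p = 0.14), with controls spread from 0 to 110.4 CPM.

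The endothelial falls were also tested within endothelial clusters. Of 4 endothelial clusters, 3 had enough cells in all groups. They are called by their leading genes: an Emcn and Ehd3 cluster, a Plvap and Fabp4 cluster, and a Tm4sf1 and Cldn5 cluster. These splits were added after the makeup of the groups was seen. Ltbp1 in UUO fell by 1.35 (adjusted p = 0.00016), 2.81 (1e-09) and 1.90 (0.00020) in the 3 clusters in that order. In UIR it fell by 2.01 (3.5e-06) and 1.20 (0.021) in the last 2 and was -0.88 (0.054) in the Emcn cluster.

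Endothelial Tgfb2 was strongest in the Tm4sf1 and Cldn5 cluster, at 281 to 466 CPM in controls against 79.0 to 141 CPM in UUO. It fell there by 1.26 in UIR (adjusted p = 0.00057) and by 1.66 in UUO (7.6e-06). It fell in the Plvap cluster too, by 2.13 (0.0053) and 1.94 (0.0021), and was -0.84 (0.50) and -0.62 (0.40) in the Emcn cluster. In these clusters the share of all genes called in UIR was 2.09%, 4.22% and 1.77%, and in UUO 9.04%, 12% and 5.45%. The 5 endothelial markers summed to 6310 to 8708 CPM in control endothelium, 7033 to 7823 in UIR and 7604 to 7734 in UUO.

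**Figure D3:**
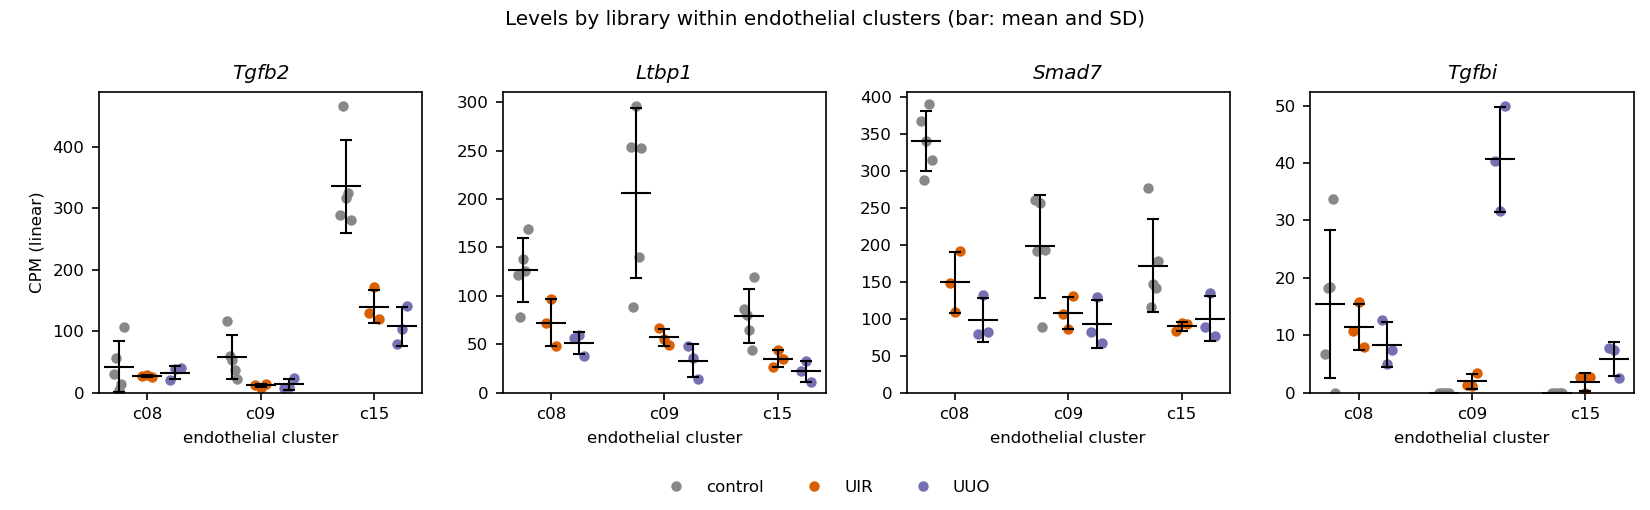
CPM (linear axis) of Tgfb2, Ltbp1, Smad7 and Tgfbi in 3 endothelial clusters, c08 (Emcn, Ehd3), c09 (Plvap, Fabp4) and c15 (Tm4sf1, Cldn5), with 1 point per library and bars for mean and SD over 5 control, 3 UIR and 3 UUO libraries. Ltbp1 lies below control in both injuries in c09 and c15 and in UUO in c08, where 1 UIR library lies within the control range, and Tgfbi is raised in the UUO libraries of c09, at 31.6 to 49.9 CPM.

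Tgfbr1, the type I receptor that carries the signal into the cell, had its highest control level in macrophages, at 478 ± 44.5 CPM (SD, n = 5). No other control class overlapped with macrophages in level, and DT/CD-P cells came next at 71.9 ± 11.9 CPM. By share of UMIs, tubular cells held 52.1% to 70.6% of Tgfbr1 in a control library and immune cells 19.65% to 37.7%. Injury drew these levels together. Among macrophages the control libraries held 511, 468, 498, 404 and 507 CPM, the UIR libraries 186, 205 and 222 CPM, and the UUO libraries 243, 225 and 224 CPM. Every injured library was below every control, and Tgfbr1 fell by 1.23 in UIR (SE 0.13, adjusted p = 1.1e-06) and by 1.12 in UUO (SE 0.13, adjusted p = 1.6e-06).

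Control macrophages came mostly from a well-covered cluster and injured ones from a shallow one. In the well-covered cluster alone Tgfbr1 fell from 437 to 586 CPM in controls to 217 to 261 CPM in UIR and 243 to 298 CPM in UUO, by 1.16 (SE 0.14, adjusted p = 6.7e-06) and 1.06 (SE 0.13, adjusted p = 9e-06), where 6.34% and 9.77% of all genes were called. In the shallow cluster, with 24 control UMIs of Tgfbr1, the values were -0.45 (adjusted p = 0.59) and -0.43 (0.54), beside 2.29% and 8.18% of genes called.

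In DT/CD-P cells Tgfbr1 rose. The control libraries held 65.0, 65.9, 73.8, 63.0 and 91.9 CPM, the UIR libraries 143, 151 and 167 CPM and the UUO libraries 196, 174 and 140.4 CPM. Neither injury overlapped with control, while the injuries overlapped with each other, and the log2 fold changes against control were 0.86 (SE 0.13, adjusted p = 6.6e-05) and 0.93 (SE 0.13, adjusted p = 1.2e-05). It rose in the loop of Henle in UUO by 0.61 (SE 0.19, adjusted p = 0.010; 0.45 in UIR, adjusted p = 0.064). In the stroma it rose from 0 to 41.1 CPM in controls to 39.2 to 57.4 CPM in UIR (1.32, SE 0.36, adjusted p = 0.017) and 70.6 to 80.3 CPM in UUO (1.87, SE 0.34, adjusted p = 0.00069). The control stroma was mostly Fibro 3, with 11.1 and 0 CPM of Tgfbr1 in its control pools and 5.05, 27.8 and 15.1 CPM in UUO. Fibro 1, nearly absent from controls, held 62.3 to 97.0 CPM over both injuries. The part of this makeup in the stromal rise was not tested.

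Tgfbr2, which binds the ligand first, was highest in the endothelium in all 3 groups, at 289 ± 25.8 CPM in controls (SD, n = 5), 392 ± 13.4 in UIR and 432 ± 43.4 in UUO (SD, n = 3 each). The UUO rise of 0.49 was called (SE 0.11, adjusted p = 0.0056), and the UIR value of 0.40 was not (adjusted p = 0.075), although neither injury overlapped with control. Of the 3 endothelial clusters tested, Tgfbr2 was called in the Tm4sf1 and Cldn5 cluster in UIR (0.73, adjusted p = 0.016) and UUO (0.71, 0.0081) and in the Plvap and Fabp4 cluster in UUO (0.62, 0.015). In the Emcn cluster it was 0.12 in both (adjusted p = 0.89 and 0.74). The loop of Henle had the largest change of the receptor. Its control libraries held 4.59, 7.67, 13.7, 8.05 and 5.13 CPM of Tgfbr2, from 15 UMIs in all. The UIR libraries held 46.7, 46.4 and 41.6 CPM and the UUO libraries 55.3, 60.5 and 60.4 CPM. The log2 fold changes were 2.30 (SE 0.28, adjusted p = 2.8e-07) and 2.68 (SE 0.27, adjusted p = 9.3e-09). In the same libraries of this class the ligands Tgfb1 and Tgfb2 and the anchor Ltbp1 rose.

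Elsewhere Tgfbr2 was less settled. It rose in the PT by 0.89 in UIR (SE 0.21, adjusted p = 0.0061) and 1.30 in UUO (SE 0.31, adjusted p = 0.0068), but replicate 3 of each injury, at 14 and 13.6 CPM, lay within the control range of 11.8 to 17.3 CPM. Without UIR replicate 1 the UIR value was 0.68 (adjusted p = 0.11), and without UUO replicate 1 the UUO value was 1.03 (0.20). In T/NK cells the UUO rise of 1.27 (SE 0.33, adjusted p = 0.045) overlapped with control replicate 5, at 105 CPM against 19.5 to 31.9 in the other controls. It was lost without control replicates 1, 3 or 4 or UUO replicates 1 or 2 (1.0 to 1.26, adjusted p up to 0.22). A cluster led by Ccl5, Cd52 and Gzma held 53 of 125 control T/NK cells and 159 of 1598 in UUO, so the class differed in makeup. In macrophages, DT/CD-P and intercalated cells Tgfbr2 was not called in either injury.

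Smad7, the inhibitor, was highest in the endothelium of controls at 241 ± 41.2 CPM (SD, n = 5), above T/NK cells with no overlap. There the control libraries held 312, 236, 231, 207 and 220 CPM, the UIR libraries 106, 93.0 and 148 CPM and the UUO libraries 81.1, 128 and 75.6 CPM. All injured libraries lay below all controls, and Smad7 fell by 1.09 in UIR (SE 0.19, adjusted p = 0.0026) and by 1.43 in UUO (SE 0.19, adjusted p = 3.1e-05). It fell in each of the 3 endothelial clusters in both injuries, by 0.96 to 1.19 in UIR and 0.84 to 1.87 in UUO. Injured and control libraries overlapped in the Plvap cluster in both injuries and in the Tm4sf1 cluster in UUO. After injury the endothelium no longer stood apart from the next classes in either group.

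The inhibitor rose in intercalated cells in UUO, by 1.09 (SE 0.22, adjusted p = 0.00099), from 32.4 to 68.7 CPM in controls to 103.1 to 146 CPM, with 68.2 to 86.9 CPM in UIR (0.41, adjusted p = 0.24). In the PT it fell by 0.51 in UIR (SE 0.14, adjusted p = 0.017), a call lost without UIR replicate 1 (-0.54, adjusted p = 0.080) or UIR replicate 2 (adjusted p = 0.057), and was -0.61 (0.076) in UUO. In the loop of Henle, where ligands and receptor rose, Smad7 was -0.28 (adjusted p = 0.26) and -0.12 (0.64).

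Ctgf (Ccn2), a matricellular protein that responds to TGF-beta, was the gene of mesenchymal cells in controls, with 63.3% to 92.4% of its UMIs in the stroma. Stromal Ctgf fell. The control libraries held 1321, 3027, 4434, 2685 and 4505 CPM, the UIR libraries 542, 435 and 731 CPM and the UUO libraries 1734, 868 and 955 CPM. All 3 UIR libraries lay below the controls, while UUO replicate 1 was above control replicate 1. The decreases were 2.37 in UIR (SE 0.35, adjusted p = 0.00014) and 1.37 in UUO (SE 0.33, adjusted p = 0.0068). This stroma leaves out a cluster without a class name, led by Mgp, Tagln and Igfbp2, that scored closest to Fibro 2. Its 63 UIR cells held 15.5% of the Ctgf UMIs of UIR, at 1415 CPM in UIR replicate 2. The part of its absence in the fall was not tested.

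The stroma that was compared differed in makeup. For its rises of Tgfb2, Tgfb3, Tgfbr1 and Tgfbi, a change of makeup and a change within cells cannot be told apart. Fibro 3, the Pdgfrb and Des cells, made up 108 of 157 control stromal cells, 73 of 801 in UIR and 178 of 852 in UUO, while the matrix-producing Fibro 1 went from 3 cells to 345 and 414. Within Fibro 3 alone, Ctgf was 3914 and 4459 CPM in 2 control pools and 2599, 2003 and 2015 CPM in UUO. It fell there by 1.05 (SE 0.20, adjusted p = 0.00021), the only 1 of 5 tested genes called (background 1.73%). Within Fibro 1, Ctgf was higher in UUO than in UIR by 1.33 (SE 0.29, adjusted p = 0.026), with 2015, 921 and 919 CPM against 673, 375 and 455. Tgfb1 was lower there by 0.85 (SE 0.20, adjusted p = 0.040), with 209, 214 and 225 CPM against 369.7, 296 and 487. These were 2 of 9 tested genes (background 1.87%), and the splits were added after the makeup was seen. Fibro 1 itself came from different clusters in the injuries. Its cluster led by Dcn, Col1a1 and Col1a2 held 0 UIR and 76 UUO cells, and the part of this in the differences was not tested.

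Epithelial Ctgf rose in the loop of Henle. The control libraries held 0, 5.12, 2.74, 2.68 and 3.42 CPM, the UIR libraries 25.6, 11.1 and 29.0 CPM, and the UUO libraries 50.9, 57.1 and 56.4 CPM. The 3 groups did not overlap, with log2 fold changes of 2.57 (SE 0.60, adjusted p = 0.0016) and 3.89 (SE 0.52, adjusted p = 1.1e-06), and UUO exceeded UIR by 1.32 (SE 0.22, adjusted p = 0.00048). With a mitochondrial limit of 15% neither rise was called (2.42 and 3.8, adjusted p = 0.41 and 0.072). Podocytes had 48.3 to 142 CPM in controls and 192 to 305 CPM in UUO, a rise of 1.32 (SE 0.23, adjusted p = 0.0013), and 0.80 in UIR (adjusted p = 0.099).

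In DT/CD-P cells Ctgf fell, by 1.16 in UIR (SE 0.27, adjusted p = 0.0035) and 0.88 in UUO (SE 0.27, adjusted p = 0.012), from 8.33 to 15.9 CPM in controls. When each cell was named by its own markers the values were -0.20 (adjusted p = 0.74) and -0.08 (0.88), and without UUO replicate 3 the UUO value was -0.75 (0.053). In the PT the UIR rise of 2.11 (SE 0.51, adjusted p = 0.0079) was 1.34 (adjusted p = 0.28) without UIR replicate 1. Free RNA would account for 24.2% to 128.5% of PT Ctgf in UIR and 36.4% to 120.5% of it in controls, so the PT values are not read as expression by these cells. The low Ctgf of macrophages and T/NK cells in the injured kidneys was mostly what free RNA would give: 86.7% to 151% of it in macrophages and 59.5% to 119.9% in T/NK cells, and it is read as background.

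Endothelial Ctgf separated the injuries. Controls ranged from 5.05 to 60.1 CPM with control replicate 5 at 202 CPM, UIR from 35.1 to 72.3 CPM and UUO from 224 to 284 CPM. The UUO rise was 1.65 (SE 0.46, adjusted p = 0.021), and UUO exceeded UIR by 2.10 (SE 0.50, adjusted p = 0.029). The first was lost without control replicate 3 (1.59, adjusted p = 0.057), control replicate 4 (1.6, 0.055) or UUO replicate 2 (1.54, 0.070), and the second without UIR replicates 1 (2.16, 0.12) or 2 (1.86, 0.13) or UUO replicates 1 (2.14, 0.069) or 2 (1.99, 0.10). Within the Plvap and Fabp4 cluster, where no alternative was run, Ctgf stood at 40.7 ± 36.0 CPM in controls (SD, n = 5), 48.1 ± 16.9 in UIR and 288 ± 40.4 in UUO (SD, n = 3 each). The log2 differences there were 2.35 against control (SE 0.28, adjusted p = 6.1e-08) and 2.58 against UIR (SE 0.25, adjusted p = 8.6e-09, background 2.68%). The other clusters were not called. The Emcn cluster was 1.36 against control (adjusted p = 0.23) and 1.89 against UIR (0.30), with control replicate 5 at 525 CPM and the other controls at 0 to 5.2 CPM. The Tm4sf1 and Cldn5 cluster was 0.16 (0.93) and 1.10 (0.58). The Fibro 2 markers summed to 1.44 to 16.2 CPM in control endothelium, 24.7 to 31.0 in UIR and 32.0 to 188 in UUO, with all 4 above 0 in both injuries. Fibro 2 cells held 217 to 391 CPM of Ctgf in UIR and 878.5, 198 and 209.7 CPM in UUO. The part of such cells in the result was not tested.

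Tgfbi, an extracellular matrix protein named for its induction by TGF-beta, was an immune gene in every group, with 82.1% to 93.2% of its UMIs in immune cells. In macrophages it did not pass the test (0.11 in UIR and 0.31 in UUO), with 162 to 344 CPM in controls, and 266 to 296 CPM after UIR against 267 to 386 CPM after UUO. UUO monocytes held the most, 653 ± 129 CPM (SD, n = 3), above neutrophils and macrophages with no overlap.

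In the stroma, 3 control libraries had 0 UMIs of Tgfbi, control replicate 4 had 6.13 CPM and control replicate 5 had 93.9 CPM. The injured libraries held 69.4 to 84.7 CPM in UIR and 66.6 to 78.5 CPM in UUO, which all lay below control replicate 5. The rises of 2.15 (SE 0.58, adjusted p = 0.017) and 1.95 (SE 0.59, adjusted p = 0.027) were called with that overlap. The UIR call was lost without control replicate 2 (1.74, adjusted p = 0.063), and the UUO call without any of control replicates 1 to 4 or UUO replicates 2 or 3 (1.55 to 1.97, adjusted p up to 0.093). Within the injured stroma the Fibro 1 cells carried the gene, at 127 to 175 CPM, while Fibro 2 stood at 2.29 to 10.1 CPM. Macrophage markers summed to 0 to 5.87 CPM in control stroma, 50.3 to 95.04 in UIR and 64.6 to 93.0 in UUO, and their part was not tested.

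In the endothelium Tgfbi was 0 to 11.8 CPM in controls, 4.89 to 5.24 in UIR and 13.5 to 20.6 CPM in UUO. The UUO rise was 1.65 against control (SE 0.45, adjusted p = 0.019) and 1.75 against UIR (SE 0.40, adjusted p = 0.020). The first was lost without control replicate 1 (1.51, adjusted p = 0.054) or UUO replicate 1 (1.51, 0.077). The second was lost without UIR replicates 1 (1.75, 0.098), 2 (1.74, 0.061) or 3 (1.77, 0.054) or UUO replicate 1 (1.62, 0.11). Of the clusters, Tgfbi was called in the Plvap and Fabp4 cluster and not in the Emcn cluster (-0.78 against control, adjusted p = 0.51), and the others were not tested for it. In the Tm4sf1 and Cldn5 cluster it was 0 in all 5 controls and 2.53 to 7.79 CPM in UUO. In the Plvap and Fabp4 cluster all 5 control libraries had 0 UMIs, UIR had 4 UMIs in all and UUO held 31.6 to 49.9 CPM, at least 12.7-fold above the floor of 3 control counts over the group (adjusted p = 2.7e-06) and 4.27 above UIR on the log2 scale (SE 0.50, adjusted p = 5.2e-07). In that cluster Tgfbi passed the filter on low counts through the UUO libraries and could only be called higher against control. Free RNA would account for 15.9% to 26.4% of endothelial Tgfbi in UUO and 35.6% to 62.8% in UIR. The 4 macrophage markers summed to 0 to 10.5 CPM in control endothelium, 62.5 to 105 in UIR and 82.3 to 139.7 in UUO, all 4 above 0 in both injuries, and their part was not tested.

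In the 10 classes, the 5 pairs called between the injuries were all higher in UUO. They were Tgfb2 in DT/CD-P cells, Ltbp1 and Ctgf in the loop of Henle, and Tgfbi and Ctgf in the endothelium. With the replicate block, Tgfb1 (0.66, adjusted p = 0.049) and Tgfb2 (1.14, adjusted p = 0.013) in the loop of Henle were called as well. Among the stromal subsets, Fibro 1 had Ctgf higher and Tgfb1 lower in UUO, as given above. The loop of Henle had 2 of 7 genes called (background 2.81%), DT/CD-P cells 1 of 6 (7.94%) and the endothelium 2 of 8 (2.55%).

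For 5 genes, changes of opposite sign were called in different classes of the same kidneys. To compare the classes directly, the difference of log2(CPM + 1) between the class with the rise and the class with the fall was taken within each library and compared between groups. For each gene and injury the higher class with the smallest adjusted p was paired with the lower class with the smallest, which gave 9 pairs, and other classes with opposite calls were not paired. Since they were chosen for their calls the shifts are a description with no test. For Tgfb2, the DT/CD-P level relative to the endothelium shifted by 3.15 in UIR and 5.45 in UUO. For Ltbp1, the loop of Henle relative to the endothelium shifted by 4.21 and 5.44. For Ctgf, the loop of Henle relative to the stroma shifted by 5.10 and 5.47. For Tgfbr1, DT/CD-P cells relative to macrophages shifted by 2.32 and 2.27, and for Smad7 intercalated cells relative to the endothelium shifted by 2.71 in UUO.

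**Figure D4:**
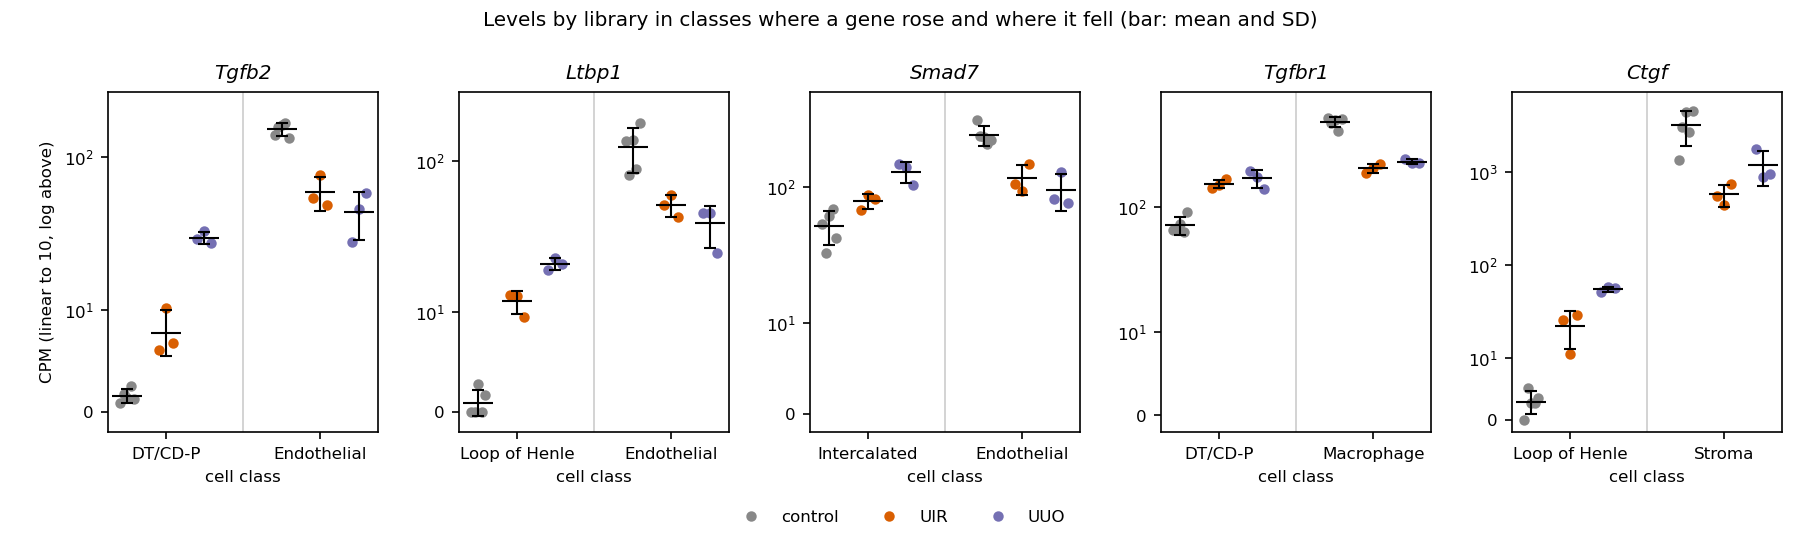
CPM by library (vertical axis, linear below 10 and logarithmic above) of 5 genes in a class where each rose and a class where each fell, with 1 point per library and bars for mean and SD over 5 control, 3 UIR and 3 UUO libraries. Tgfb2 in DT/CD-P cells climbs from under 3 CPM in controls to 27.5 CPM or more in UUO while endothelial Tgfb2 falls below every control.

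Cells of the same class name came from different clusters in control and injured kidneys. Of 294 control loop of Henle cells, 147 and 137 lay in 2 clusters led by Egf, Umod and Slc12a1. The leading clusters of the 1671 UIR cells (853, 508 and 207 cells) and the 1109 UUO cells (356, 418 and 326 cells) had Wfdc2 and Lcn2 among their leading genes. In DT/CD-P, 350 of 493 UUO cells lay in a cluster led by Lcn2 and Clu that held 1 control cell. Of the intercalated cells, 153 of 189 in controls lay in a cluster led by Atp6v1g3, Tmem213 and Atp6v1c2, while 149 of 234 in UUO lay in a cluster led by Atp6v1g3, Defb1 and Adgrf5 that held 0 control cells, so the values of Tgfb1, Tgfb2 and Smad7 in this class compare these clusters. The frTEC markers summed to 30.1 to 138 CPM in control loop of Henle, 563 to 658 in UIR and 837 to 1275 in UUO, and the loop of Henle markers to 17450 to 21590, 12320 to 13460 and 6947 to 8374 CPM. A loss of some cells and a change within cells cannot be told apart for these classes.

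When all kept cells of a library were summed, Tgfb1 went from 19.2 ± 3.96 CPM in controls (SD, n = 5) to 77.2 ± 8.27 in UIR and 128 ± 16.1 in UUO (SD, n = 3 each), and Tgfbi from 6.27 ± 1.59 to 42.6 ± 6.95 and 93.8 ± 26.9 CPM. In these sums 6 of 9 genes were called in UIR, 8 of 9 in UUO and 6 of 9 between the injuries, all higher, where 61.2%, 70.4% and 20.1% of all genes were called, so the UIR count is near the background. Smad7 was not called in any (0.02, 0.13 and 0.12), although it fell in the endothelium. Ctgf was -0.03 in UIR (adjusted p = 0.91) and 1.05 in UUO (SE 0.23, adjusted p = 0.0011). The stroma held 32.2% to 55.8% of the Ctgf UMIs of a UIR library and tubular cells 8.21% to 16.9%. Cells without a class name held 34.2% of those of the UIR group. The part of each in the summed value was not tested. With a mitochondrial limit of 15% the sums of Tgfb2 turned to -0.41 in UIR and -0.13 in UUO, and that of Ltbp1 to -0.4 in UUO. In such a sum fewer cells of a type and less RNA per cell cannot be told apart. A cluster of cells with Tagln and a smaller one led by Mgp, Tagln and Igfbp2 (63 UIR cells), both without a class name, held 17.6% and 15.5% of the Ctgf UMIs of UIR, the second of which was 9.49% without UIR replicate 2.

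A list of 37 other genes of the pathway was followed in the same fits. It holds 9 genes of latency and activation, 3 receptors, 11 genes of signal transduction and 14 genes known to respond. Of 268 tests of gene and class, 80 were called in UIR (69 higher and 11 lower), 104 in UUO (94 higher and 10 lower) and 22 between the injuries (18 higher and 4 lower in UUO), beside the backgrounds of 13.0%, 18.7% and 2.15%. The genes known to respond were called in 34 of 90 tests in UIR and 45 of 90 in UUO, all higher. The latency group had 18 higher and 5 lower of 58 in UIR and 22 higher and 4 lower of 58 in UUO. The receptors had 0 higher and 5 lower of 20 in UIR and 3 higher and 4 lower in UUO. The transduction genes were called in 18 and 26 of 100.

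In the loop of Henle 16 and 18 of 31 list genes were called, all higher, beside 31.9% and 37.4% of all genes of the class. Cdkn1a, the cell cycle inhibitor p21, was called at 3.67 in UIR (adjusted p = 3.7e-09) and 4.31 in UUO (5.8e-11), from 12.1 ± 13.9 CPM in controls (SD, n = 5) to 148 ± 22.5 and 233 ± 12.6 (SD, n = 3 each). Cdkn2b, another cell cycle inhibitor, rose by 3.47 and 3.56. Fn1, the matrix protein fibronectin, had 0 UMIs in control loop of Henle and was at least 18.3-fold higher in UUO (adjusted p = 1.2e-07). With no control UMI it could only be called higher.

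DT/CD-P cells had 13 of 29 called in UIR (29.1% of all genes) and 22 of 29 in UUO (44.8%). Cdkn1a rose there by 2.77 and 3.84, and Tgif1, a transcriptional repressor of SMAD targets, by 1.81 and 2.53. Thbs1, thrombospondin, which can activate latent TGF-beta, fell by 2.20 in UUO (SE 0.27, adjusted p = 2.7e-06), and it fell in intercalated cells by 1.92 and 4.10. In the endothelium Thbs1 went the other way, from 2.17 ± 0.887 CPM in controls (SD, n = 5) to 45.4 ± 16.2 in UUO (SD, n = 3), a rise of 4.19 (SE 0.38, adjusted p = 5e-07). It was also higher in UUO than in UIR by 2.43 (SE 0.26, adjusted p = 3e-05).

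The endothelium had 6 of 33 list genes called in UIR (2.16% of all genes) and 14 in UUO (12.5%). In UUO Cyr61, a matricellular relative of Ctgf, rose by 1.72 (adjusted p = 0.0021), and it was higher than in UIR by 1.29, a difference called in 18 of 24 alternatives (adjusted p up to 0.18). Ltbp4 fell in UIR by 0.77 (adjusted p = 0.0084), the direction of Ltbp1. Lrrc32, another gene of the latency group, rose there by 0.89 (adjusted p = 0.035, called in 19 of 24 alternatives, adjusted p up to 0.38).

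In the stroma 19 of 35 were called in each injury (13.7% and 16.6% of all genes). Ltbp2 had 1 control UMI and Timp1, an inhibitor of matrix proteases, had 3, and their pooled ratios in UIR were 242 (95% interval 43.4 to 9568) and 161 (55.0 to 780.2). Fn1 rose by 4.42 in UIR. Between the injuries Postn, periostin, was higher in UUO by 3.14 (adjusted p = 0.00013), the collagen crosslinker Lox by 1.38 (0.0024), and Timp1 lower by 1.66 (0.0085, called in 22 of 24 alternatives, adjusted p up to 0.076).

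In macrophages Pmepa1, an inhibitor of TGF-beta signalling that is itself induced by it, rose by 0.83 in UIR (adjusted p = 0.016, called in 22 of 24 alternatives, adjusted p up to 0.074) and 1.27 in UUO (0.00011), in the cells where Tgfbr1 fell. It rose also in T/NK cells in UUO by 1.71 (adjusted p = 0.00069).

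**Figure D5:**
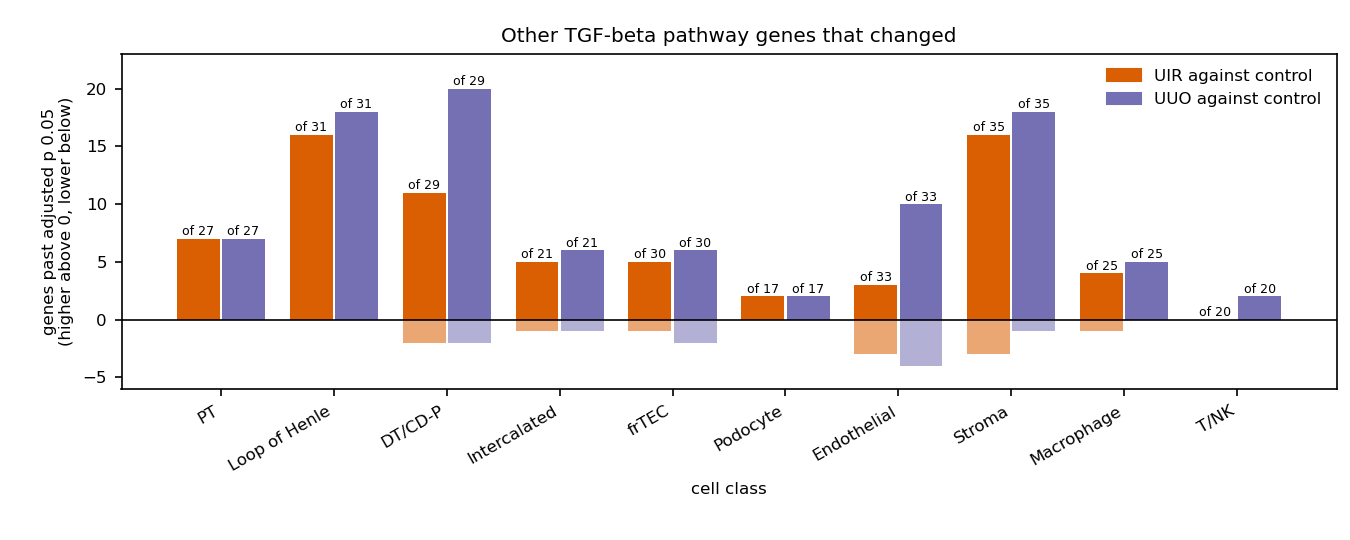
Number of the 37 other pathway genes past an adjusted p of 0.05 (vertical axis, higher counted upward and lower downward) in each cell class for UIR and UUO against control. The loop of Henle, DT/CD-P cells and stroma have the most, up to 22 of 29 tested in DT/CD-P cells in UUO.

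Over 41 means of class and group, genes were ranked by the Pearson correlation of mean log2(CPM + 1) with each of the 9 genes, among 13803 genes. The points share libraries, and the values are a description. Closest to Tgfb1 were Lgals9 (0.92), Sp100 (0.91) and Fxyd5 (0.90), to Tgfb2 Prkcdbp (0.89), Spin4 and Ttll7 (0.87 each), and to Tgfb3 Ednra and Fgf2 (0.89 each) and Fxyd1 (0.87). Closest to Ctgf were 2310022B05Rik (0.94), Cald1 (0.92) and Sep15 (0.91), to Tgfbi Trf (0.91), Alox5ap (0.90) and AI607873 (0.89), to Ltbp1 Lrch2 (0.88) and Ntf3 (0.87), and to Smad7 Rbbp6 (0.85), Tia1 (0.81) and Anxa11 (0.80). For the receptors they were Anln (0.73), Oas2 and Neurl1a (0.72 each) for Tgfbr1, and Fam212a (0.81), Tpbgl and Sepn1 (0.79 each) for Tgfbr2. Among the 9 genes, Tgfb2 was most like Ltbp1 (0.77) and Ctgf (0.71), and Tgfb1 most like Tgfbi (0.72) and Tgfbr2 (0.66).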

How the data were processed

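The deposited files hold raw UMI counts per gene and droplet, which the authors made with Cell Ranger (3.1.0 in the submitters' processing notes) on the mm10 genome from 3′ droplet libraries. No normalization had been applied. Droplets were called as cells from a UMI cutoff with a minimum of 500 UMIs and a test against empty droplets (10000 simulations, adjusted p 0.01). Cells needed 200 genes, at most 30% mitochondrial and 5% hemoglobin UMIs, and the 7.5% most doublet-like were removed per library. Cells were clustered (2000 variable genes, 40 principal components, 20 neighbours, leidenalg 0.10.2 at resolution 1), and clusters were named from marker lists or left without a name.

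Counts were summed per class and library where at least 20 cells were present and tested with edgeR 4.0.16 (R 4.3.3) by the quasi-likelihood test. The 3 groups shared 1 model with TMM scaling and a filter on low counts, and p-values were adjusted by the Benjamini-Hochberg method over all genes of a class. In data simulated with known changes, the step recovered 126 of 200 changed genes in the loop of Henle among 11585 genes, with 4 false calls, and 115 of 200 in macrophages among 9662 genes, with 8 false calls. Libraries held 49503312 to 117043590 UMIs in all, and the kept cells of a library 10594120 to 41607131. Free RNA was estimated from droplets without a cell. The 24 alternatives included DESeq2 1.42.0. Libraries shared at most 17 cell barcodes. The 9 genes were named by symbol, the 37 pathway genes came from a list, of which up to 3 per comparison and class were named by the size of the change among those past the threshold, and all of these and the marker lists were chosen with earlier results of these data known. Some genes that these rules name are not reported here.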

Additional observations from a re-analysis of the deposited data

Results flagged for a closer look

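Among 63 groups of 4 or 5 control libraries tested for a single library far from the others, 12 had one. Some of these stood out only against 0 in all others, so no chance rate is set beside the count. Control replicate 5 had 202.0 CPM of Ctgf in the endothelium (others 5.05 to 60.11), 93.86 CPM of Tgfbi in the stroma (0 to 6.131), 105.3 CPM of Tgfbr2 in T/NK cells (19.47 to 31.85) and 8.098 CPM of Ctgf in T/NK cells (all others 0). Control replicate 1 had 312.2 CPM of Smad7 in the endothelium (207.4 to 235.7) and 183.4 CPM of Tgfbr2 in macrophages (209.6 to 218.5). Control replicate 2 had 37.88 CPM of Smad7 in the PT (26.65 to 29.75), 2.558 CPM of Tgfb1 in the loop of Henle (all others 0) and 14.72 CPM of Tgfbr2 in podocytes (47.31 to 58.23). Control replicate 3 had 54.78 CPM of Tgfbr1 in the loop of Henle (30.69 to 37.62) and 131.8 CPM of Tgfbr2 in intercalated cells (23.25 to 36.67). Control replicate 4 had 2.313 CPM of Ctgf in the PT (0.4497 to 0.885).

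The injuries differed by the edgeR test of UUO against UIR. The log2 differences were 1.87 for Tgfb2 in DT/CD-P cells, 0.81 for Ltbp1 and 1.32 for Ctgf in the loop of Henle, and 1.75 for Tgfbi and 2.10 for Ctgf in the endothelium. Over all kept cells they were 0.65 for Tgfb1, 0.41 for Tgfb2, 0.31 for Tgfbr1, 0.52 for Tgfbr2, 1.05 for Tgfbi and 1.09 for Ctgf.

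Shifts between classes within a library stood out for pairs that were chosen because one class was called higher and the other lower, so the difference between classes was not tested independently and the values are a description. Tgfb2 shifted toward DT/CD-P cells against the endothelium by 3.15 in UIR and 5.45 in UUO. Tgfbr1 shifted toward DT/CD-P cells against macrophages by 2.32 and 2.27. Ltbp1 shifted toward the loop of Henle against the endothelium by 4.21 and 5.44, and Ctgf toward the loop of Henle against the stroma by 5.10 and 5.47. Smad7 shifted toward intercalated cells against the endothelium by 2.71 in UUO.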

How the results depend on the processing

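Of 62 results called in the classes, 29 stayed past the threshold in every alternative run, 20 lost it in 1 to 3 and 13 in more than 3, and none of the 62 changed sign. Most were lost with a mitochondrial limit of 15% (13), with cells named singly (10), without UIR replicate 1 or UUO replicate 1 (9 each) and with DESeq2 or without UUO replicate 2 (8 each). With the 15% limit the 9 genes had 15 calls in UIR, 21 in UUO, and over all cells 5 in UUO and 2 between the injuries, while the pathway list had 48 in UIR and 63 in UUO. Over all cells that limit turned Tgfb2 to -0.41 in UIR and -0.13 in UUO and Ltbp1 to -0.40 in UUO, and the cause was not tested. With at least 50 cells per pool the 9 genes had 19 calls in UUO and the pathway list 53 in UIR and 59 in UUO. Between the injuries the 9 genes had 12 calls with no filter on low counts and 9 with doublets kept, and the pathway list had 40 with no filter. Leaving out 1 library at a time gave 3 to 6 calls between the injuries for the 9 genes and 13 to 23 for the pathway list, and 18 to 25 in UIR and 27 to 35 in UUO for the 9 genes. The labels number 2 libraries of each injury and leave the third without a number. With the replicate block the 9 genes had 25, 33 and 7 calls and the pathway list 84, 106 and 30, and over all cells 6, 8 and 5. The block gained Tgfb1 (0.66, adjusted p = 0.049) and Tgfb2 (1.14, adjusted p = 0.013) in the loop of Henle between the injuries. UIR and UUO libraries with the same number deviated together at r = 0.478 and 0.103 and those without a number at 0.574, but UIR replicate 2 was most like UUO replicate 1 (0.131), and with 2 shared numbers the block was not taken as a pairing. Tests within clusters and stromal subsets were added after the data were seen. Depth limits the loop of Henle, where 294 control cells gave 1 UMI of Tgfb1, 2 of Ltbp1 and 0 of Tgfb2.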
